A study of Homo sapiens with 2 samples.

Results

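Promoter CpG islands were sorted by how far the transcription start lies from the downstream border of its island, and the map of called nucleosome positions was read from both landmarks. A promoter island was a CpG island on hg38 chromosomes 1-22 that holds exactly 1 MANE Select start, the start of the single reference transcript that RefSeq and GENCODE agree on for a protein-coding gene. Of 16504 islands on these chromosomes, 8940 met this rule, 6833 held no such start and 731 held more than 1. Of the 8940, 2734 also held an annotated GENCODE start of another gene, which the rule does not count. The downstream edge is the island border that the polymerase reaches after leaving the start. Its distance from the start was under 150 bp in 168 islands, 150 to 400 bp in 1543, 400 to 1000 bp in 5521 and over 1000 bp in 1708. The rule reads sequence and annotation and uses no nucleosome call.

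The cells were ARPE-19, an established human line of retinal pigment epithelium, in interphase and under normal culture with no treatment. Micrococcal nuclease, which cuts the linker DNA between nucleosomes, was used on lysed cells, and fragments the size of a mononucleosome were cut from a gel and sequenced. The labels list 2 samples, named as batches 1 and 2 of this 1 group, with no control arm and no second condition. The authors deposited 1 list of 2634347 single-base positions that names neither batch, so no value has a spread between samples, the reads behind a position are unknown, what point of a nucleosome a position marks is not stated, and no test over cultures was possible. Expression was not measured in this series, so activity of a gene and the labelled cell type were not checked against markers: of 14 pigment epithelium genes, 3 had a start in a member island.

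A CpG island is a stretch where CpG dinucleotides were not lost to methylation and decay, and most human housekeeping and developmental promoters lie in one. Active promoters usually have a gap without nucleosomes just upstream of the start, and a nucleosome at a set place after it, called the +1 nucleosome, followed by a spaced row into the gene. The border of an island is where CpG content drops and where DNA methylation usually begins. Whether nucleosomes keep their place relative to the start or relative to the border can be seen where the distance between the landmarks varies, as it does between the classes.

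The sequences of 6 edges give examples of the border in each of the longer classes. Each runs 60 bases inside and 60 bases outside the downstream edge, 5′ to 3′ on the gene's strand, from the hg38 reference, with every CpG in capitals. All lie in an intron of the gene and overlap no annotated GENCODE exon. The genes are TOPBP1 (chr3:133661555-133661674, minus strand, intron 1), a scaffold of the replication checkpoint, and TTC21B (chr2:165953401-165953520, minus strand, intron 1), a component of cilium transport, with 150 to 400 bp to the edge. STBD1 (chr4:76307270-76307389, plus strand, intron 1), a glycogen-binding protein, and NUBP1 (chr16:10744378-10744497, plus strand, intron 2), of iron-sulfur cluster assembly, have 400 to 1000 bp. SPTBN1 (chr2:54457672-54457791, plus strand, intron 1), a spectrin of the membrane skeleton, and VAX2 (chr2:70902020-70902139, plus strand, intron 1), a homeobox factor of the ventral retina, have over 1000 bp.
TOPBP1: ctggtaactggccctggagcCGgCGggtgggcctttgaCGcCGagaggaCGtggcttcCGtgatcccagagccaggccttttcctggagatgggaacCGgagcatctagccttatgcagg
TTC21B: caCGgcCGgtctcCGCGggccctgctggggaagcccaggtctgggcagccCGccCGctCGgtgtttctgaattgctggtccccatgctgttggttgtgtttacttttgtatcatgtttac
STBD1: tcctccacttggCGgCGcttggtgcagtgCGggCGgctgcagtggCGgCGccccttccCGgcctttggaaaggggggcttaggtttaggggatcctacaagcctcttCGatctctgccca
NUBP1: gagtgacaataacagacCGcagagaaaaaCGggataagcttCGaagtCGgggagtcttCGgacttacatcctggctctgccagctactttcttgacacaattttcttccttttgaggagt
SPTBN1: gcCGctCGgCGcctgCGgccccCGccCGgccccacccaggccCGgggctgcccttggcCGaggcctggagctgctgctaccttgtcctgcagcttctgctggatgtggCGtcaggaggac
VAX2: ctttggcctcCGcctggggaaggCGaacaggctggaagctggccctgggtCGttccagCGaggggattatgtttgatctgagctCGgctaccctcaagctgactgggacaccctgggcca

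The last CpG before the middle of each line is the edge itself, since an island ends on a CpG by construction. The 60 bases inside hold 7 CpGs in TTC21B and 5 in NUBP1, and the 60 bases outside hold 0 in both. SPTBN1 has 8 inside and 1 outside, and VAX2 has 4 and 1. The edge of FMNL2, with over 1000 bp from the start, was chosen by the same rule but is not shown. It has 5 CpGs inside and 3 outside, a weaker drop. The 6 genes shown and FMNL2 were chosen for having a position called 100 to 180 bp after the start and another within 100 bp of the downstream edge. They are examples and say nothing on how often both occur. TOPBP1 has positions 135 and 299 bp after its start, and the nearest to its edge lies 27 bp inside. TTC21B has them 113 and 282 bp after the start, the latter 33 bp inside the edge. NUBP1 has positions 151, 523 and 588 bp after its start, of which the last pair lies 72 and 7 bp inside the edge. In SPTBN1 the positions lie 145 bp after the start and 10 bp outside the edge.

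The stretch just before the start, where positions were rarest, is shown for 2 genes. It gives the 80 bases upstream of the start with CpGs in capitals, in HSPA13 (chr21:14383147-14383226, minus strand), which encodes a member of the Hsp70 chaperone family, and in STBD1 (chr4:76306653-76306732, plus strand). Neither stretch overlaps an annotated exon or holds a called position.
HSPA13: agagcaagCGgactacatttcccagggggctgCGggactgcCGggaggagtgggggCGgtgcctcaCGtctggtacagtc
STBD1: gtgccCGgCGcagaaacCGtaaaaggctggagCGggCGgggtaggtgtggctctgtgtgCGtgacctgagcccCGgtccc

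The classes differed in size and in where the edge falls in the gene. Median island length was 697 bp in the class under 150 bp, 673 bp at 150 to 400 bp, 978 bp at 400 to 1000 bp and 1922.5 bp over 1000 bp. Median GC content lay between 67.4% and 71.1% in the 4 classes, and the median observed to expected CpG ratio between 0.837 and 0.865. In the shortest class the edge lay in the 5′ UTR part of exon 1 in 58.9% of islands and in intron 1 in 28.6%. From 150 to 400 bp it lay in intron 1 in 83.3%, and from 400 to 1000 bp in 84.4%. Over 1000 bp this share was 62.8%, with a further 12.7% in later introns and 6.56% in later coding exons. Exon 1 of transcripts with several exons lengthened along the classes, from a median of 137 bp to 152, 215 and 357 bp.

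Promoter sequence differed too, counted in the 300 bp from 250 bp before to 50 bp after the start and on both strands. The motif CCGGAAG, the core that ETS factors recognise, occurred in 20.2% of the 168 islands under 150 bp, in 23.8% of the 1543 islands at 150 to 400 bp (95% Wilson interval 21.8 to 26.0%), in 16.3% at 400 to 1000 bp and in 5.44% over 1000 bp (4.47 to 6.62%), against 14.2% of all 18191 MANE Select starts. The TATA motif TATAAA occurred in 4.76%, 2.53%, 4.06% and 6.44% of the classes from short to long and in 9.55% of all starts. The GC box GGGCGG occurred in 79.8% to 85.4% of the 4 classes, against 62.6% of all starts, and CCAAT in 28.0% to 35.9%, against 35.7%. A match is a stretch of letters and not a site of binding.

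The 80 bp before the start were nearly empty in every class. Of 168 islands under 150 bp, 0 had a position there, which allows a share of up to 1.79%. The counts were 4 of 1543 islands (0.259%), 39 of 5521 (0.706%) and 13 of 1708 (0.761%) in the longer classes, against 3.27% of all MANE Select starts. That share was 0.596% for starts inside islands and 6.83% for starts outside them. Density in this window was 0.0324 positions per kb at 150 to 400 bp (95% Poisson interval 0.00883 to 0.083), 0.0883 at 400 to 1000 bp (0.0628 to 0.121) and 0.102 over 1000 bp (0.056 to 0.172). By Fisher's exact test, two-sided and adjusted over 20 tests, the share in the longest class did not pass as different from that under 150 bp (adjusted p = 0.731), at 150 to 400 bp (adjusted p = 0.0711) or at 400 to 1000 bp (adjusted p = 0.966). These intervals and floors cover counting error only.

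Downstream of the start, every class had its maximum in the same place, 120 to 140 bp after the start, whichever side of the island edge that was. Density in these 20 bp was 5.95 positions per kb in the class under 150 bp (95% Poisson interval 3.64 to 9.19, 20 positions), 3.86 at 150 to 400 bp (3.19 to 4.61), 2.58 at 400 to 1000 bp (2.29 to 2.9) and 1.11 over 1000 bp (0.787 to 1.53). The density expected there from the GC content was 1.51, 0.769, 0.562 and 0.53 per kb. The peak fell in height from class to class while its maximum stayed in the same bin. The median of positions 60 to 220 bp after the start was 125.5 bp under 150 bp (48 positions), 125 bp at 150 to 400 bp (quartiles 109 and 141), 126 bp at 400 to 1000 bp (109 and 142) and 121 bp over 1000 bp (96 and 141). Chromosome medians had an SD of 3.58 bp over 22 chromosomes at 400 to 1000 bp. The SD was 6.9 bp over 15 chromosomes at 150 to 400 bp and 6.32 bp over 5 in the longest class. A chromosome median rests on fewer positions than a class median, and the fixed window limits how far either can move. Differences in place between classes were not tested.

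In numbers of islands, 35 of 168 (20.8%) had a position 100 to 180 bp after the start when the edge was under 150 bp away, and 6 had one 190 to 270 bp after it. At 150 to 400 bp the counts were 270 and 20 of 1543, or 17.5% and 1.3%. At 400 to 1000 bp they were 671 and 64 of 5521, or 12.2% and 1.16%. Over 1000 bp they were 94 and 18 of 1708, or 5.5% and 1.05%. Over all MANE Select starts, 15.5% had a position in the first window and 3.53% in the second. For starts inside islands the shares were 14.0% and 1.19%, and for starts outside islands 17.6% and 6.65%. The first window exceeded the second in each class by the exact McNemar test, which uses the islands with a position in 1 window only (adjusted p = 9.75e-06, 1.36e-58, 6.73e-132 and 3.84e-13). It was higher on 14 of 22 chromosomes and lower on 1 under 150 bp, higher on 22 of 22 at 150 to 400 bp and at 400 to 1000 bp, and on 20 of 22 over 1000 bp. The windows were placed with earlier results of these data known, so the McNemar tests are no independent support for a peak.

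The share with a position at 100 to 180 bp was lower over 1000 bp than in each shorter class. Fisher's exact test gave adjusted p = 6.44e-10 against the class under 150 bp, 5.02e-27 against 150 to 400 bp and 4.78e-16 against 400 to 1000 bp. The log2 ratio of the shares was 1.93, 1.66 and 1.14. GC content moved with this result: from 120 to 140 bp after the start it was 59.5%, 70.1%, 72.6% and 73.6% along the classes, and over the genome calls thin out at the highest GC, from 1.74 positions per kb at 62 to 64% GC to 0.522 at 70 to 72%. Set against the number of positions that GC content gives, the window held 1.71, 2.94, 2.81 and 1.4 times the expected number. On that scale, by an exact binomial test, the class under 150 bp no longer passed against the longest (log2 ratio 0.29, adjusted p = 0.343). The log2 ratio was 1.06 for 150 to 400 bp and 0.99 for 400 to 1000 bp, and both passed. Islands without any position within 2000 bp of the start made up 8.93%, 9.01%, 10.4% and 13.1% of the classes.

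Finer strips of distance show how the share ran between the limits. It was 29.2% of 106 islands with 150 to 200 bp to the edge (95% Wilson interval 21.4 to 38.5%), 17.4% of 643 at 400 to 450 bp (14.7 to 20.5%), 11.1% of 531 at 600 to 650 bp (8.71 to 14.1%) and 6.82% of 352 at 800 to 850 bp (4.62 to 9.94%). From 950 to 1000 bp it was 4.78% of 209 islands (2.62 to 8.58%), and beyond 1000 bp the strips lay between 2.7% and 7.4% with overlapping intervals. The strips from 200 to 400 bp lay between 15.3% and 20.2%, so the 29.2% of 106 islands stood above its neighbours on the longer side. From 400 bp on, the decline was spread over the range to about 950 bp and had no step at 1000 bp. Relative to GC content the strips under 150 bp lay between 1.57 and 1.96 times the expected number, and those from 150 to 700 bp between 2.33 and 3.31 times. From 700 to 950 bp they lay between 1.97 and 2.83 times, and that from 950 to 1000 bp at 1.17 times. The ratio was 1.62 at 1000 to 1200 bp, 2.01 at 1200 to 1400 bp and between 0.519 and 1.29 beyond 1400 bp. On this scale the decline was not even. The median place of the peak in the strips with at least 20 positions lay between 103 and 129 bp, the lowest being that of islands with 100 to 150 bp to the edge (23 positions).

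**Figure D1:**
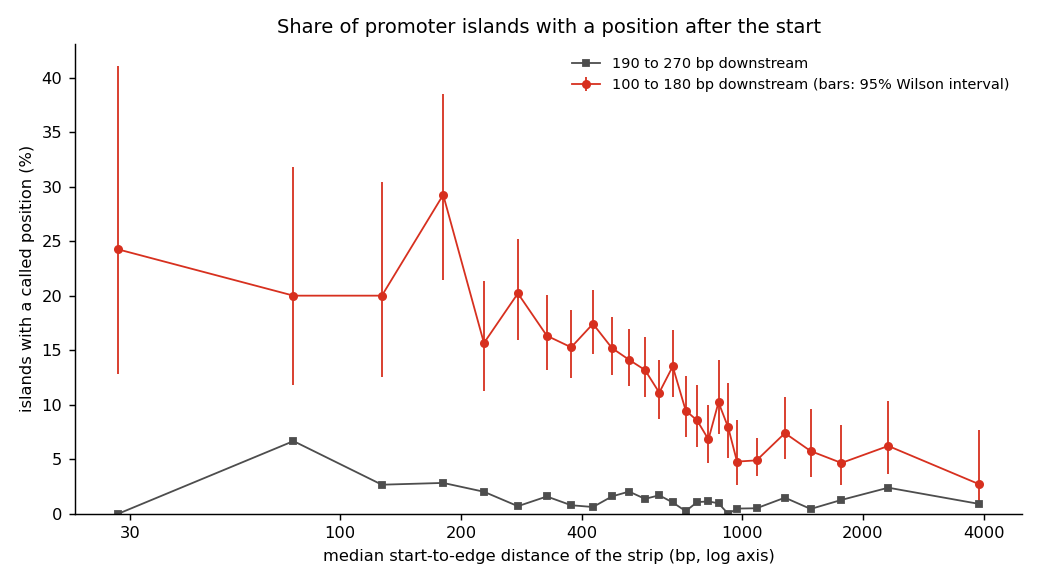
Percent of promoter islands with a called position 100 to 180 bp (circles, 95% Wilson interval) and 190 to 270 bp (squares) after the start, against the median start-to-edge distance of the strip on a log axis. The first share is highest at 150 to 200 bp (29.2%), lies between 15.3% and 20.2% from 200 to 400 bp and reaches 4.78% at 950 to 1000 bp. The second stays at or below 6.67%.

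A position 100 to 180 bp after the start was found on either side of the border. Where the start lay under 50 bp from the edge, 8 of 33 islands had a position 100 to 180 bp after the start, which is outside the island. PSMD4, a ubiquitin receptor of the proteasome, has 28 bp to its edge and a position 152 bp after the start, 124 bp outside. RPL13A, a protein of the large ribosomal subunit, has 100 bp to its edge and a position 125 bp after the start, 25 bp outside. LMAN2, a cargo lectin of the secretory pathway, has positions 126 and 298 bp after the start, or 30 and 202 bp outside its edge. TBC1D15, a regulator of RAB GTPases, has 1 at 149 bp, 53 bp outside. In PSMD5, a proteasome assembly chaperone with 156 bp to the edge, the position 125 bp after the start lies 31 bp inside.

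The map of density over both landmarks shows a band between 100 and 150 bp after the start over most strips. The strip with 100 to 150 bp to the edge, where the edge itself lies in the band, stood apart. Its median place was 103 bp (quartiles 95.5 and 127, 23 positions), against 131 bp (126 and 145, 17 positions) with 50 to 100 bp to the edge and 124.5 bp (115.5 and 138.75, 34 positions) with 150 to 200 bp. These differences were not tested.

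**Figure D2:**
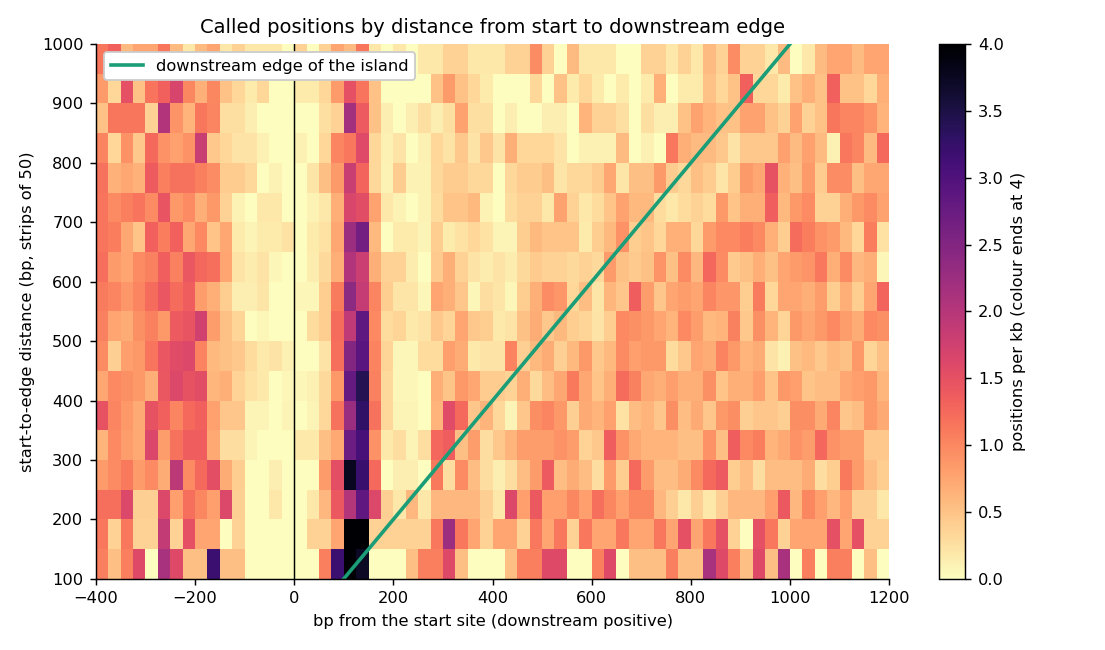
Called positions per kb (colour) by bp from the start (horizontal, bins of 25 bp) and start-to-edge distance (vertical, strips of 50 bp from 100 to 1000 bp), with the edge as a slanting line. A dark band lies between 100 and 150 bp after the start and pales towards longer distances; in the lowest strip, where the edge passes through it, it reaches closer to the start (median 103 bp).

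The second peak after the start was lower in every class. A position 280 to 360 bp after the start was present in 10.1% of islands under 150 bp (17 of 168), 7.91% at 150 to 400 bp (122), 3.93% at 400 to 1000 bp (217) and 2.28% over 1000 bp (39), against 7.12% of all starts. It exceeded the window at 190 to 270 bp in each class (exact McNemar test, adjusted p = 0.0496, 9.28e-19, 3.05e-20 and 0.0116). These windows too were placed with earlier results known. Of all starts, 5.08% of those inside islands and 9.84% of those outside had a position 280 to 360 bp downstream. The shares were not tested between classes, and relative to GC content the window held 0.779, 0.744, 0.799 and 0.463 times the expected number, level in the 3 shorter classes and below 1 in all 4. In the class under 150 bp the second peak missed the threshold of the exact test without chromosomes 9 and 15 (adjusted p = 0.154) and in 2 other alternatives, and over 1000 bp it missed it without islands that hold a start of another gene (adjusted p = 0.0581). Medians of the positions 240 to 400 bp after the start were 299, 317, 326 and 328 bp along the classes, with interquartile ranges that overlapped. At 400 to 1000 bp a later maximum stood at 480 to 500 bp (0.543 per kb).

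Upstream of the start, the maximum lay at -220 to -200 bp in the class of 150 to 400 bp (1.36 per kb) and at -240 to -220 bp at 400 to 1000 bp (1.39 per kb). Over 1000 bp it lay at -180 to -160 bp (0.907 per kb), and under 150 bp 3 bins tied at 5 positions each, the first at -320 to -300 bp. A position 290 to 210 bp before the start was present in 6.55% of islands under 150 bp, in 9.14% at 150 to 400 bp, in 9.22% at 400 to 1000 bp and in 6.26% over 1000 bp (95% Wilson interval 5.21 to 7.51%). Relative to GC content these windows held 0.81, 0.921, 0.999 and 0.783 times the expected number. The upstream side was thus closer to its GC expectation than the downstream peak.

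At the downstream edge the density took 4 levels, most plainly where the start was over 1000 bp away. It was 0.212 positions per kb from 169 to 89 bp inside (95% Poisson interval 0.142 to 0.305), 0.71 in the last 80 bp inside (0.576 to 0.866), 0.432 from 20 to 100 bp outside (0.329 to 0.557) and 1.02 from 110 to 190 bp outside (0.862 to 1.21). At 400 to 1000 bp the values were 0.337, 0.634, 0.419 and 0.752 per kb, in the same order of low, high, low and high. The last 80 bp inside exceeded the stretch further in on 21 of 22 chromosomes over 1000 bp and on 20 of 22 at 400 to 1000 bp. At 150 to 400 bp the level further in was 0.745 per kb, and that window takes in the first peak after the start of islands whose edge is near.

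The step from the inside to the outside window was tested in each class. It is a difference between windows, and the stretch from the edge to 20 bp outside belongs to neither. Across the border itself density changed little, from 0.468 to 0.527 per kb in adjoining 10-bp bins over 1000 bp. At 400 to 1000 bp it went from 0.489 to 0.435. The lowest bins within 100 bp outside held 0.176 and 0.181 per kb, at 80 to 90 bp. These bins were not tested. Over 1000 bp, 95 of 1708 islands (5.56%) had a position in the last 80 bp inside and 57 (3.34%) had one 20 to 100 bp outside. Over all 33008 island edges these shares were 6.2% and 4.08%. At 400 to 1000 bp they were 4.75% and 3.24% (262 and 179 islands), and at 150 to 400 bp 8.23% and 3.63% (127 and 56). In the class of 150 to 400 bp the inside window takes in positions of the first and second peaks after the start, so its step is not one of the edge alone. The exact McNemar test gave adjusted p = 0.00374, 0.000136 and 2.57e-07. The edge windows were also placed with earlier results of these data known. Under 150 bp the counts were 20 and 19 of 168 and the exact test did not pass (adjusted p = 1). In that class the start itself lies in or beside the inside window, and with limits of 100, 300 and 800 bp the step of the shortest class was reversed (log2 ratio -1.78, exact McNemar test, adjusted p = 0.0274).

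**Figure D3:**
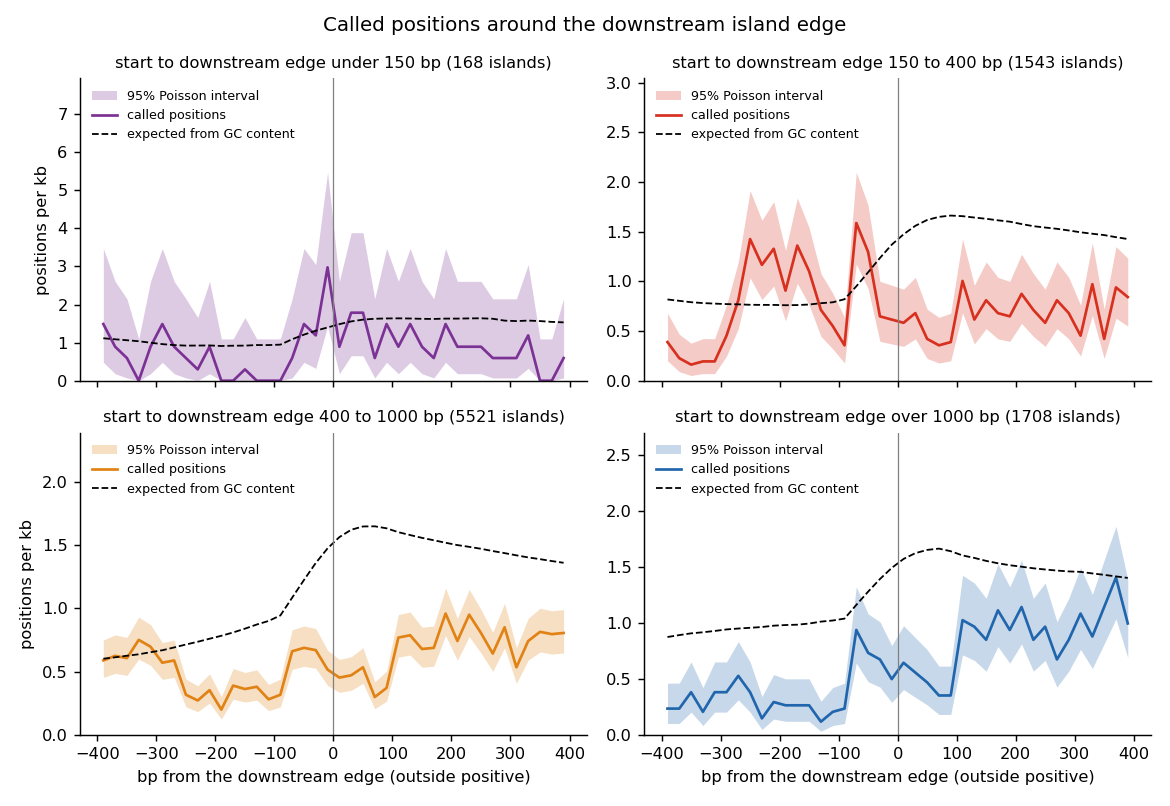
Called positions per kb (solid, with 95% Poisson interval) against bp from the downstream edge in bins of 20 bp, outside positive, with the density expected from GC content (dashed). In the classes of 400 to 1000 bp and over 1000 bp the density rises 80 bp inside the edge, sinks to its lowest level outside at 60 to 100 bp and rises again at 100 bp outside.

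The number expected from GC content had no dip between the inside and outside windows. Over 1000 bp it was 137.5, 182.6, 224.8 and 212.7 positions in the 4 windows from inside to outside, where 29, 97, 59 and 140 were called. These are 0.211, 0.531, 0.263 and 0.658 times the expected number, and at 400 to 1000 bp the ratios were 0.387, 0.49, 0.255 and 0.482. All 8 values were below 1.

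The step was compared with that at edges on the upstream side of the start and at edges of islands with no MANE Select start. Other annotated starts were not excluded from the latter islands, which are called islands without a start below. At upstream edges over 1000 bp from the start, 49 of 732 had a position in the last 80 bp inside and 29 had one 20 to 100 bp outside. At the edges of islands without a MANE Select start the counts were 734 and 370 of 13666. The step at downstream edges over 1000 bp differed from the upstream ones by a log2 odds ratio of -0.01 and from those without a start by -0.28. Fisher's exact test on edges with a position in 1 window only passed in neither case (adjusted p = 1 and 0.383), which does not show that the steps are equal. With islands over 200 bp, GC at least 50% and a ratio over 0.6, the latter difference passed (log2 odds ratio -0.90, Fisher's exact test, adjusted p = 0.000765), the step being larger at edges without a start.

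In bins of 10 bp the boundaries were sharp and fell at the same distances in all 3 sets of edges. At downstream edges over 400 bp from the start, density went from 0.277 per kb between 90 and 80 bp inside to 0.747 between 80 and 70 bp inside. Outside it was 0.18 per kb from 80 to 90 bp, 0.553 from 90 to 100 bp and 0.871 from 100 to 110 bp. Upstream edges went from 0.388 to 1.03 per kb at 80 bp inside, and from 0.44 at 80 to 90 bp to 0.957 at 100 to 110 bp outside. Edges without a start went from 0.388 to 0.659 and from 0.3 to 0.798 per kb at these places.

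**Figure D4:**
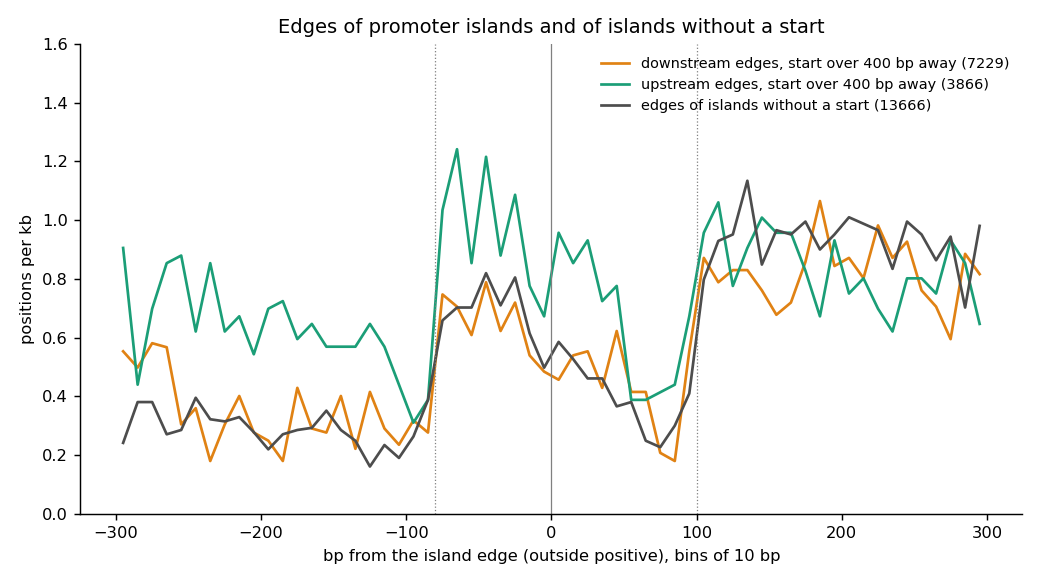
Called positions per kb in bins of 10 bp against bp from the island edge, outside positive. Lines show downstream edges and upstream edges over 400 bp from the start, and edges of islands without a MANE Select start. All 3 lines rise between 90 and 70 bp inside and again between 90 and 110 bp outside (dotted lines at -80 and 100 bp).

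Between the landmarks the longest islands were sparsely covered. From 400 bp past the start to 200 bp before the edge, islands over 1000 bp held 686 positions in 1797 kb, or 0.382 per kb (95% Poisson interval 0.354 to 0.411). From 110 to 1000 bp outside the edge they held 1631 positions, or 1.07 per kb (1.02 to 1.13). The log2 ratio of inside to outside was -1.46 ± 0.40 (SD over 22 chromosomes) and was negative on 22 of 22. The number expected from GC content was not computed for these stretches, so how much of this ratio goes with GC content was not tested. Only 22.5% of islands over 1000 bp had any position in the first 1000 bp after the start, against 40.3% at 400 to 1000 bp, 50.9% at 150 to 400 bp and 59.5% under 150 bp. In these shorter classes the stretch runs past the edge, so the shares mix sequence inside and outside the island. Of their islands with a position, 64.9%, 50.7% and 20% had the first one inside.

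Gene groups are given beside the classes of all members, of which 1.88%, 17.3%, 61.8% and 19.1% fell in the classes from short to long. Of 80 ribosomal protein genes, 45 were members, with 5, 11, 27 and 2 of them in the classes from short to long. A position 100 to 180 bp after the start was present in 17 of the 45, where 15.5% of all starts and 5.5% to 20.8% of the classes had one. RPL10A has it at 122 bp, with the edge 400 to 1000 bp away. Of 38 proteasome genes 17 were members, 8 at 150 to 400 bp and 8 at 400 to 1000 bp, and 3 had the position, among them PSMA4 at 136 bp. Of 16 glycolytic enzyme genes 13 were members, 9 of them at 400 to 1000 bp, and 0 had it.

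Homeobox and related developmental factors, which specify body regions and organs, lay mostly in the longest class. Of 105 genes on the list 76 were members, and 47 of these (61.8%, against 19.1% of all members) had over 1000 bp from start to edge and 27 had 400 to 1000 bp. None of the 47 in the longest class had a position 100 to 180 bp after the start, where 94 of all 1708 islands did. VAX2, also a homeobox gene of that class but not on the list, has positions 122 and 300 bp after the start. The 3 members among the pigment epithelium genes had 0. These are counts beside the class totals and were not tested.

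Members with both landmarks occupied show how the distances add up in single genes. NDUFV1, a subunit of respiratory complex I with 319 bp to its edge, has positions 130 and 315 bp after the start, the latter 4 bp inside the edge. SNAPC3, of the complex that binds and activates small nuclear RNA promoters, has 326 bp to the edge and positions at 107 and 310 bp, the latter 16 bp inside. HSPA13 has positions 132 and 316 bp after the start, at 37 and 221 bp outside its edge. In FMNL2, a formin that builds actin filaments, with 1286 bp to the edge, positions lie 63 and 179 bp after the start and 26 bp outside the edge. UCK1, a kinase of pyrimidine salvage, has 1 at 110 bp and 1 at 671 bp, the latter 47 bp outside. At the class limits, CARMIL2 had 149 bp and FGF9 150 bp, DUSP18 399 bp and ARID3B 400 bp, and HIF1A 1000 bp and DEDD2 1002 bp. None of these 6 had a position 100 to 180 bp after the start.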

How the data were processed

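The deposited list gives a start and an end per row; every row is 1 bp and was read as a called position, with no height or score. Per the submitters' processing notes the build was hg38 and Bowtie2 was among the tools; the caller, the threshold and whether the batches were pooled are not given in the sources used here. Of 2634347 rows 4 were repeats, and 2558490 distinct positions lay on chromosomes 1-22. Islands were found in the hg38 reference with a running score of +17 per CpG and -1 otherwise, and a segment was kept if it was longer than 500 bp, had a GC content of 55% or more and a CpG ratio (observed to expected) above 0.65. Starts and exons came from GENCODE 44.

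An island counted if it had a position in an 80-bp window. Windows within a class were compared with the exact McNemar test and classes with Fisher's exact test, both two-sided, with Benjamini-Hochberg adjustment over 20 tests and a threshold of 0.05. The islands are the units, so the p-values describe this 1 list and not cultures. Neighbouring positions are not independent. The GC expectation gave each base the density of its 2% GC bin over 200 bp. Members, windows and gene lists were chosen with earlier results of these data known. Genes were named by rule: 4 per class with positions in both windows and a distance nearest the class median, those nearest the limits, and up to 3 per list, of which 2 are not reported here. VAX2 came in by the first part of the rule. The procedure was tested on simulated lists. Python 3.11.15, numpy 2.4.6, scipy 1.17.1, pandas 2.3.3, numba 0.67.0 and matplotlib 3.10.9 were used.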

Additional observations from a re-analysis of the deposited data

How the results depend on the processing

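Over 20 tested results, 158 alternative values were computed under 8 settings: 144 had the same direction and the same call, 5 lost the call, 3 gained one and 6 reversed. The values are log2 ratios. For the peak 100 to 180 bp after the start, the call of the class under 150 bp against the longest was lost with the GC expectation (0.29, exact binomial test, adjusted p = 0.343). For the second peak, the class under 150 bp lost its call without chromosomes 9 and 15 (1.16), without islands that hold a start of another gene (1.84) and with class limits of 100, 300 and 800 bp (1.35), and the class over 1000 bp lost it without islands that hold a start of another gene (0.97). The start gap of 150 to 400 bp against the longest class passed with the GC expectation (-1.87, exact binomial test, adjusted p = 0.014) and without islands that hold a start of another gene (-2.23, adjusted p = 0.0203). That of 400 to 1000 bp reversed without chromosomes 9 and 15 (0.011) and with the other class limits (0.051), and that under 150 bp reversed with the wider island definition (0.72), without passing in any of the 3. The edge step under 150 bp reversed with the wider island definition (-0.11) and with the other class limits (-1.78, exact McNemar test, adjusted p = 0.0274). At downstream edges over 1000 bp, the difference from upstream edges reversed without islands that hold a start of another gene (0.17), and that from edges without a start passed with the wider island definition (-0.90). The cause was not tested. The peak within each class and the edge step in the 3 longer classes passed under all 8 settings. However, 1 setting left out islands without any position within 2000 bp of the start. It could not change the within-class tests of either peak, nor the edge steps up to 1000 bp, since such islands have no position in either window. Its values for these results are among the 144 and add no support. The GC expectation was not computed for the 2 differences between edge steps. No paired analysis was possible because the list names no batch. The read depth is unknown, and 168 islands in the shortest class limit its values.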
